A study of Mus musculus with 17 samples.

Results

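The genes described here encode the synaptic vesicle and the machinery that docks, fuses and retrieves it. The 37 members were given by name, and each matched 1 row of the 55359 genes in the table of expected counts through its Ensembl identifier in GENCODE. The rule itself used no measured value, although the list was drawn up with earlier results of these data known, and all 37 had enough counts to be tested in forebrain. They were followed across 3 genotypes of osteocalcin (Ocn) in the forebrain of newborn mice, with the testes of newborn mice as contrast.

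The series held 17 libraries of male mice at postnatal day 1, 9 from forebrain with 3 WT, 3 Ocn+/- and 3 Ocn-/-, and 8 from testes with 2 WT, 3 Ocn+/- and 3 Ocn-/-. According to the study the mutants belonged to the Ocn_GK strain, in which the locus was changed by homologous recombination in embryonic stem cells. WT pups had WT mothers, whereas Ocn+/- and Ocn-/- pups both had Ocn-/- mothers. The genotype of the mother and that of the pup therefore cannot be told apart in a comparison with WT, whereas Ocn-/- and Ocn+/- pups shared the genotype of the mother. The fathers of the pups sequenced are not given in the sources used here. The labels call the brain tissue hippocampus and the study calls it forebrain including the hippocampus. They do not state how many litters the libraries came from, so the p-values measure the spread between these libraries.

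A nerve terminal stores transmitter in vesicles that are filled by transporters and tethered in a cluster by synapsins. At the active zone, scaffolds such as Bassoon, Piccolo and RIM hold vesicles next to calcium channels, and Munc13 proteins prime them by opening syntaxin for assembly with SNAP25 and synaptobrevin. Calcium binding to a synaptotagmin triggers fusion of a primed vesicle, with complexin clamping and promoting the step, and dynamin, amphiphysin and synaptojanin recover the membrane. In the newborn rodent forebrain synapses are few and their number rises steeply during the following weeks.

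Total counts ran from 6518151 to 14621584 per forebrain library and from 7302401 to 8289015 per testis library. The forebrain library WT 3 stood apart, and the legend of the study's forebrain heatmap counts fewer WT forebrains than the table holds. It had the fewest counts, 5.34% mitochondrial counts against 2.4% to 3.18% in the other forebrains, and 28.3% of its counts in its 100 most abundant genes against 16.8% to 18.5%. Of 12 general neuronal markers the lowest, Nefm, was at 48.9 CPM or more and Tubb3 at 1690 CPM or more in every forebrain, the hippocampal and pallial genes Prox1 and Neurod2 at 31.9 CPM and 147 CPM or more, and the striatal gene Drd1 at 10.3 CPM or more. Hoxb3 and Hoxb5, which mark hindbrain and spinal cord, were at 0 in all forebrains. CPM gives the counts of a gene scaled to a common library size, after TMM normalization between libraries. The summed level of 4 olfactory bulb markers (Cdhr1, Tbx21, Th and Doc2g) was 13.3 CPM to 20.6 CPM in WT and 80.9 CPM to 106.6 CPM in Ocn+/-. In Ocn-/- it was 12.9 CPM, 60.7 CPM and 64.3 CPM, so that Ocn-/- 1 lay at the level of WT, with Tbx21 at 0. The summed level of 12 general neuronal markers was lower in every mutant forebrain, at 11050 CPM to 11670 CPM, than in the WT forebrains, at 11880 CPM to 12560 CPM, while their median log2 fold change with both mutants together was -0.03, with 3 of the 12 above 0 and 2 called, both lower. Osteocalcin itself cannot check the genotypes here, since Bglap had at most 5 counts in any forebrain and at most 2 in any testis.

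Over all 9 forebrains the most abundant members per length were the vesicle SNARE Vamp2 (synaptobrevin), the complexin Cplx2 and the synaptotagmin Syt4. Levels were compared between genes as RPKM, the CPM divided by the kilobases of all annotated exons of the gene. This length differs unevenly from that of a transcript. Syt1 had 12899 bases of exons and 4998 in its longest transcript, whereas Cplx2 had 4936 in both. The order of members given here holds for this length and can differ with another. Vamp2 reached 134 RPKM ± 15.2 (SD, n = 9 libraries), Cplx2 107 RPKM ± 13.1, Syt4 98.8 RPKM ± 10.4 and the vesicle GTPase Rab3a 91.2 RPKM ± 6.65. The order after Vamp2 turned with genotype. In WT Syt4 was second at 112 RPKM ± 1.2 (SD, n = 3), above Cplx2 at 94.7 RPKM ± 5.95 and Rab3a at 85.1 RPKM ± 5.37. In Ocn+/- Cplx2 at 116 RPKM ± 7.53 and Rab3a at 96.8 RPKM ± 2.6 stood above Syt4 at 90.7 RPKM ± 3.14. In Ocn-/- Cplx2 was at 110.5 RPKM ± 14.6, and Syt4 at 93.6 RPKM ± 4.92 and Rab3a at 91.6 RPKM ± 6.19 cannot be ordered within their spread. Syn1 followed at 57.8 RPKM ± 4.22 and Syp (synaptophysin) at 53.5 RPKM ± 6.82. Stx1a, Snap91, Sv2a, Snap25 and Nrxn2 lay between 29.2 RPKM and 30.9 RPKM and cannot be ordered within their spread. At the low end stood Vamp1 at 1.0 RPKM ± 0.147 and Syt2 at 0.493 RPKM ± 0.139, the isoforms that serve fast synapses of brainstem, spinal cord and the neuromuscular junction in the adult. The monoamine transporter Slc18a2 was at 2.2 RPKM ± 0.722.

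Some pairs of related members differed widely in level. Per library, Vamp2 was 109 to 166 times the RPKM level of Vamp1, Syn1 23.9 to 36.0 times that of Syn3, Unc13a 4.78 to 5.71 times that of Unc13b and Cplx2 2.7 to 3.14 times that of Cplx1. The vesicular glutamate transporter Slc17a7 (VGLUT1) was 1.23 to 2.65 times its relative Slc17a6 (VGLUT2). The ratio of Syn1 to Syn3 did not overlap between genotypes, at 23.9 to 25.8 in WT, 35.1 to 36.0 in Ocn+/- and 28.4 to 31.7 in Ocn-/-. The ratio of Slc17a7 to Slc17a6 was 1.23 to 2 in WT, 1.59 to 2.65 in Ocn+/- and 2.31 to 2.49 in Ocn-/-. The ratio of Cplx2 to Cplx1 was 2.7 to 2.83 in WT, 2.96 to 3.14 in Ocn+/- and 2.89 to 3.14 in Ocn-/-. The ratios of Vamp2 to Vamp1 and of Unc13a to Unc13b overlapped between WT and both mutant genotypes. Syn3, Slc17a7 and Cplx2 are among the members called in forebrain below, so the ratios that hold them are not separate results. How many ratios of other gene pairs do not overlap was not counted. The size of a ratio also depends on the exon lengths, with 21369 bases for Syn3 against 8785 in its longest transcript.

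The promoters of members were read from RefSeq windows of build GRCm38.p6, from 250 bases before to 50 bases after each start, for 29 of the 37 members and 27025 genes in all. No window was matched for Nrxn2, Snap25, Syt5, Syt7, Syn3, Vamp2, Rims2 and Syt4. A GC box, GGGCGG on either strand, was in 86.2% of the members' windows and in 38.2% of all windows. The TATA box TATAAA, also sought on both strands, was in 3.45% of the members' windows, that of Sv2b, and in 15.7% of all. The 27025 genes with a window outnumber the 16076 tested in forebrain. These shares therefore do not compare the members with expressed genes alone. The left part of the RE1 element, TTCAGCACC on either strand, was in 2 members, Syn1 and Unc13a, and in 0.433% of all windows. RE1 is bound by REST, a repressor that keeps many neuronal genes silent outside neurons. The cyclic AMP response element TGACGTCA, which reads the same on both strands, was in Slc18a2 and Syn1 and in 2.03% of all windows. The sequences below show the 2 RE1 parts, with the motif in capitals, at position -232 from the start in Syn1 (chrX:20921097-20921168, minus strand) and at position 23 in Unc13a (chr8:71671717-71671745, minus strand), where it is on the strand opposite to the gene. The third shows the upstream part of the window of Slc17a7 (chr7:45163771-45163920, plus strand), the member with the largest log2 fold change in forebrain, with its GC boxes on either strand in capitals, overlapping ones run together. All 3 are written 5′ to 3′ along the gene.
Syn1: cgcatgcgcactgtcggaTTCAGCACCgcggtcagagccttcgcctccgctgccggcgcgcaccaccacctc
Unc13a: ccgcgcccccGGTGCTGAAgcgacatggc
Slc17a7: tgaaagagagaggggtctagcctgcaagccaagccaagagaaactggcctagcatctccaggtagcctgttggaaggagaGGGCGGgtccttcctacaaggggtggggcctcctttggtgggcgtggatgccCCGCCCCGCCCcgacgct
A match is a stretch of letters and not a measured site.

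The first comparison asked which members differed between mutant and WT forebrains. In Ocn+/- forebrains Slc17a7 rose 1.5-fold, while Syn3 fell to 0.75 of its WT level and Syt4 to 0.81. In Ocn-/- forebrains Syt4, Unc13a and Unc13b fell to between 0.793 and 0.835 of their WT level and no member was called higher. With both mutant genotypes pooled against WT, Slc17a7, Syt1 and Cplx2 rose and Syn3, Syt4, Unc13a and Unc13b fell. No member changed by more than 1 on the log2 scale, and the largest log2 fold change was 0.58.

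These calls were made with edgeR's quasi-likelihood test at a Benjamini-Hochberg adjusted p under 0.05 over 16076 genes. Of the 37 members 3 were called in Ocn+/- against WT, where 3.89% of all genes were called. In Ocn-/- against WT 3 were called, against 4.85% of all genes, and with both mutant genotypes together 7 were called, against 8.68%. Of these 3 were higher and 4 lower, where 3.29% of all genes were called higher and 5.39% lower. The median log2 fold change over the members was 0.10 in Ocn+/-, 0.02 in Ocn-/- and 0.05 in both together, beside 0.01 over all genes tested in each of the 3 comparisons. All 3 comparisons use the same WT libraries. In whole tissue, fewer cells of a type and less RNA per cell cannot be told apart.

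Some members did not overlap between mutant and WT libraries. In Ocn+/- against WT this held for 17 members, 13 higher and 4 lower, where 26.8% of all genes did not overlap, 13% higher and 13.8% lower. In Ocn-/- against WT it held for 7 members, again beside 26.8% of all genes. Between all 6 mutant and the 3 WT forebrains 7 members did not overlap, beside 15.5% of all genes, 6.94% higher and 8.51% lower. Those higher in all mutants were Amph, Syt1 and Syt11, and those lower were Syn3, Syt4, Unc13a and Unc13b.

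**Figure D1:**
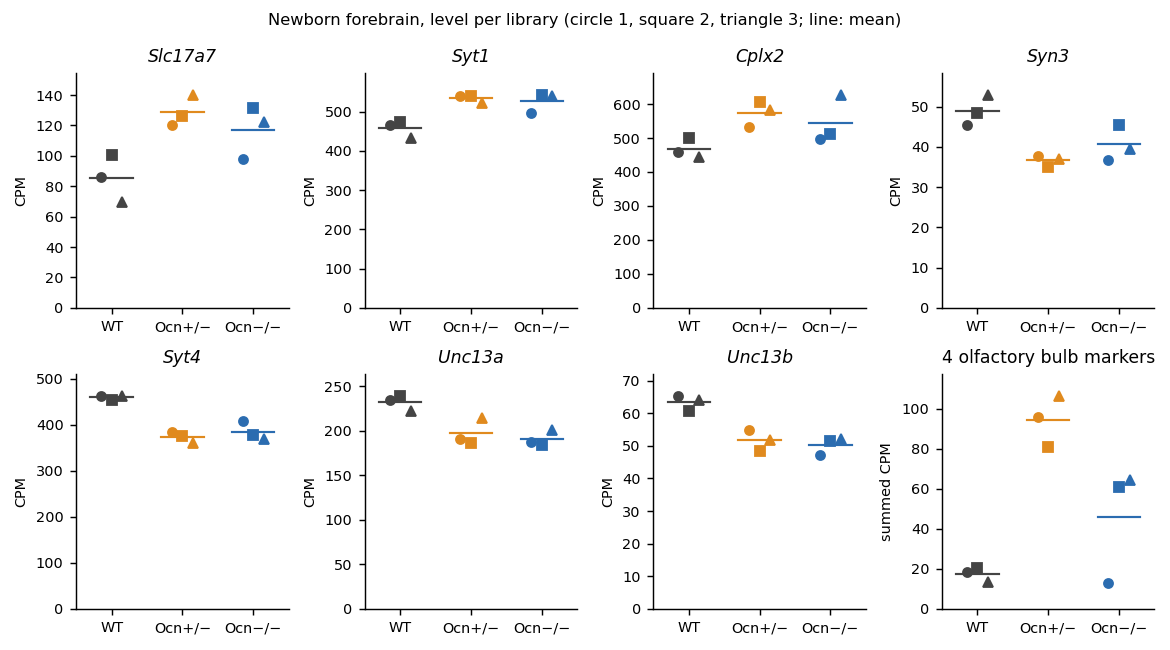
Level in CPM of the 7 members called in forebrain and summed CPM of 4 olfactory bulb markers, for each library of WT, Ocn+/- and Ocn-/- (circle, square and triangle for libraries 1, 2 and 3; line, mean of 3 libraries; axes start at 0). Syn3, Syt4, Unc13a and Unc13b are lower in all 6 mutants than in the 3 WT, Syt1 is higher in all 6, and the olfactory bulb markers range from 12.9 CPM in Ocn-/- 1 to 106.6 CPM in Ocn+/- 3.

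Among the proteins of the vesicle membrane and its cluster, Syn3 was the only one of 7 members called. Synapsins tether vesicles to each other and to actin, and Syn3 is the form best known from immature neurons. Syn3 (GRCm39 chr10:85884617-86334773, minus strand) was at 45.5, 48.5 and 53.0 CPM in WT, at 37.8, 35.0 and 37.04 CPM in Ocn+/- and at 36.8, 45.5 and 39.5 CPM in Ocn-/-. All WT values lay above all mutant values, the highest mutant being Ocn-/- 2 at just below the lowest WT. The log2 fold change of Syn3 against WT was -0.42 ± 0.11 (SE) in Ocn+/-, with an adjusted p of 0.0373 by edgeR's quasi-likelihood test, and -0.26 ± 0.11 in Ocn-/-, with an adjusted p of 0.158. Of the other members in this group Syn2, which also tethers vesicles, had 0.23 and 0.30, and Syp, a main protein of the vesicle membrane, 0.28 and 0.18, none past the threshold. Syn1, Sv2a, Sv2b and Sv2c, the last 3 being transporter-like vesicle glycoproteins, lay between -0.11 and 0.12 in both genotypes.

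Of the 3 transporters, which load vesicles with transmitter, Slc17a7 rose and the others were not called. Slc17a7 (GRCm39 chr7:44813305-44825644, plus strand) fills the glutamatergic vesicles of cortical, hippocampal and olfactory mitral neurons. It stood at 86.3, 100.4 and 69.8 CPM in WT, at 120.1, 126 and 140.3 CPM in Ocn+/- and at 97.8, 131 and 122 CPM in Ocn-/-. The Ocn+/- libraries all lay above WT, while Ocn-/- 1 lay below WT 2, so that the Ocn-/- and WT groups overlapped. The log2 fold change of Slc17a7 was 0.58 ± 0.13 in Ocn+/-, with an edgeR adjusted p of 0.0188, and 0.45 in Ocn-/-, with 0.0544. With both mutants together it was 0.52 ± 0.11, with 0.0119. WT 3 had the lowest Slc17a7 level and the lowest sum of the 4 olfactory bulb markers among the WT, Ocn+/- 3 the highest of both among all forebrains, and Ocn-/- 1 the lowest of both among the mutants. The orders differed for other libraries, since Ocn+/- 1 lay above Ocn+/- 2 and Ocn-/- 3 above Ocn-/- 2 in the marker sum but below them in Slc17a7. Most of the rise of the sum was Cdhr1, at 4.79 CPM to 12.5 CPM in WT and 70.9 CPM to 92 CPM in Ocn+/-. At low levels Tbx21 was at 0.177 CPM to 0.533 CPM in WT and 1.39 CPM to 2.97 CPM in Ocn+/-, and Th at 1.61 CPM to 3.19 CPM and 4.33 CPM to 6.37 CPM. Doc2g was at 5.14 CPM to 6.1 CPM in WT and 4.26 CPM to 5.97 CPM in Ocn+/-. In Ocn+/- against WT 3 of the 4 had an unadjusted edgeR p under 0.05, beside 20.3% of all genes. None of the 4 markers was called. Their part in the result was not tested. Slc17a6, the transporter of thalamic and many subcortical glutamatergic neurons, had 0.16 in Ocn+/- and -0.18 in Ocn-/-. Slc18a2, which loads monoamines, had -0.45 and -0.30, with values of 6.69 CPM to 20.9 CPM over the 9 forebrains.

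Synaptotagmins showed changes in both directions. Syt4, a form that does not bind calcium as Syt1 does and is found on dense-core vesicles and in dendrites, was at 464, 455 and 464 CPM in WT, at 385, 376 and 359.7 CPM in Ocn+/- and at 408, 378 and 369.5 CPM in Ocn-/-. The WT libraries lay close together and above all 6 mutants. The log2 fold change of Syt4 was -0.30 ± 0.07 in Ocn+/-, with an edgeR adjusted p of 0.0199, and -0.26 ± 0.07 in Ocn-/-, with 0.0383. Syt1, the calcium sensor of fast release (GRCm39 chr10:108333505-108846856, minus strand), was at 466, 473 and 433 CPM in WT, at 539, 539 and 523 CPM in Ocn+/- and at 495.5, 544 and 539.6 CPM in Ocn-/-. All 6 mutants lay above the WT, and the log2 fold change of Syt1 with both mutants together was 0.21 ± 0.06, with an edgeR adjusted p of 0.0418. In neither genotype alone did Syt1 pass, with 0.22 (adjusted p 0.0879) in Ocn+/- and 0.20 (0.106) in Ocn-/-. Syt11, another form that does not bind calcium, was also higher in all 6 mutants, at 339 CPM to 369 CPM against 307 CPM to 325 CPM, but its log2 fold change of 0.14 in each genotype was not called, and 11.4% of its 50-base stretches also occur in other transcripts. Syt2, Syt5 and Syt7, calcium-binding forms, had log2 fold changes from -0.02 to 0.28, the highest being Syt2 in Ocn-/- with few counts.

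The SNARE proteins themselves were not called in any forebrain comparison with WT. Vamp2, on the vesicle side, was at 454, 494 and 514 CPM in WT, at 545, 607 and 587 CPM in Ocn+/- and at 423, 510.2 and 547 CPM in Ocn-/-. The Ocn+/- libraries lay above WT, and the Ocn-/- libraries reached from below the lowest WT to above the highest. The log2 fold change of Vamp2 was 0.25 in Ocn+/- (edgeR adjusted p 0.114) and 0.02 in Ocn-/- (0.933). On the membrane side Stx1a (syntaxin) had 0.31 and 0.27 and Snap25 0.10 and -0.02. Vamp1 had -0.01 and -0.21. Among the complexins, which bind the assembled SNARE bundle, Cplx2 (GRCm39 chr13:54519154-54531730, plus strand) was at 458, 500.2 and 444 CPM in WT, at 534, 607 and 582 CPM in Ocn+/- and at 496, 512 and 628 CPM in Ocn-/-. Ocn-/- 1 lay just below WT 2, and every other mutant lay above all WT. With both mutants together Cplx2 rose by 0.26 ± 0.08, with an edgeR adjusted p of 0.0448. Cplx1 had 0.15 and 0.10 and was not called, and 4.3% of the 50-base stretches of Cplx2 also occur in other transcripts.

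The Rab3 proteins, GTPases that mark docked vesicles, were not called. Rab3a had log2 fold changes of 0.18 in Ocn+/- and 0.10 in Ocn-/-, and Rab3c -0.22 and -0.09. Rab3c varied more, from 255 CPM to 367 CPM over the 9 forebrains, with its highest value in WT 3.

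At the active zone both Munc13 genes fell and the scaffolds were not called. Unc13a (Munc13-1, GRCm39 chr8:72076694-72124685, minus strand), the main priming factor of forebrain glutamatergic synapses, was at 235, 239.7 and 222 CPM in WT, at 191, 186 and 215 CPM in Ocn+/- and at 187, 184 and 201 CPM in Ocn-/-. Unc13b (Munc13-2, GRCm39 chr4:43058940-43264885, plus strand), which primes a smaller set of synapses, was at 65.5, 60.7 and 64.0 CPM in WT, at 55.0, 48.4 and 51.9 CPM in Ocn+/- and at 47.2, 51.6 and 52.1 CPM in Ocn-/-. In both genes all 6 mutants lay below all 3 WT. The log2 fold change of Unc13a was -0.24 in Ocn+/- (edgeR adjusted p 0.0897), -0.28 ± 0.08 in Ocn-/- (0.0406) and -0.26 ± 0.07 with both together (0.0205). That of Unc13b was -0.29 in Ocn+/- (0.0798), -0.33 ± 0.09 in Ocn-/- (0.0437) and -0.31 ± 0.08 with both together (0.02). The scaffold Bsn (Bassoon) had 0.22 and 0.20, while its relative Pclo (Piccolo) had -0.20 and -0.07. Rims1, Rims2 and Erc2, which link vesicles, channels and scaffold, lay between -0.08 and 0.19. Nrxn2 and Nrxn3, presynaptic adhesion receptors, had 0.17 and 0.07 for the first and -0.12 in both genotypes for the second.

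None of the 4 genes of membrane retrieval was called in forebrain. Amph (amphiphysin), which bends the membrane and recruits dynamin, was at 162 CPM to 179 CPM in the 6 mutants and at 129 CPM to 162 CPM in WT, with log2 fold changes of 0.15 and 0.17. Dnm1 (dynamin), which cuts the vesicle off, had 0.16 and 0.04. Synj1 (synaptojanin), which strips the coat, had -0.05 in both genotypes, and Snap91 (AP180), a clathrin adaptor, 0.02 and 0.03. Snap91 also varied least of all members, 1.12-fold between its highest and lowest forebrain.

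**Figure D2:**
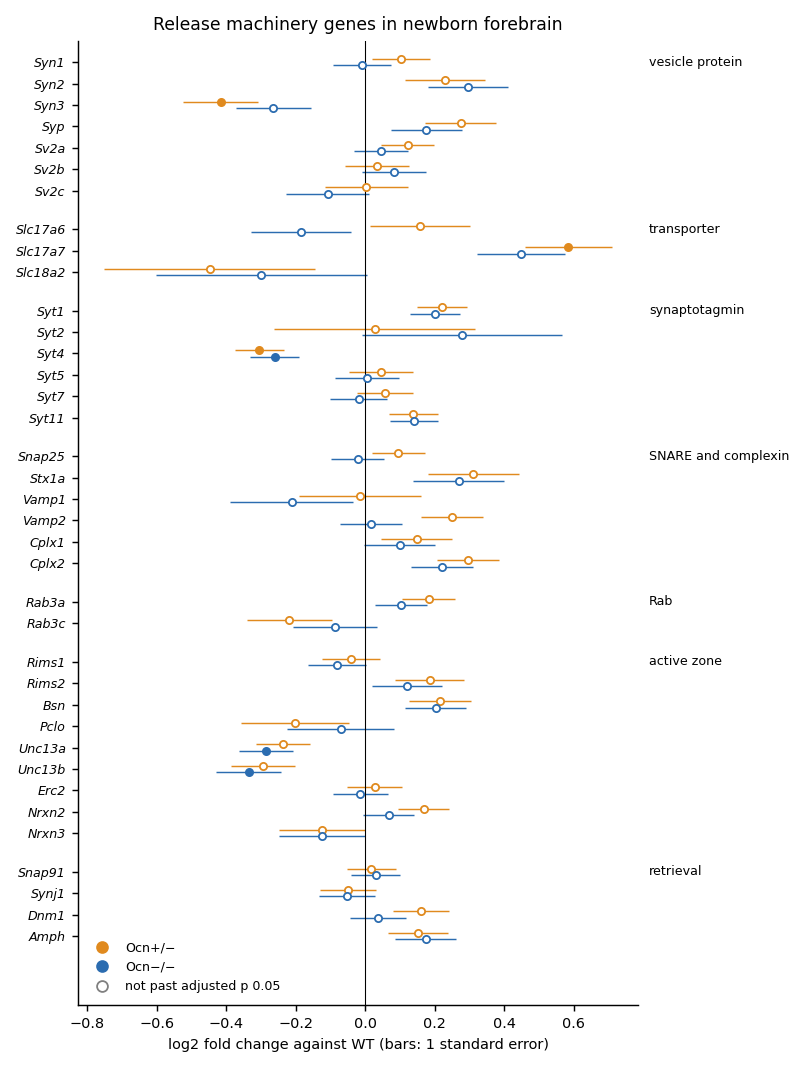
Log2 fold change against WT of the 37 members in Ocn+/- (orange) and Ocn-/- (blue) forebrain, grouped by role, with bars of 1 standard error, derived from edgeR's fold change and test statistic. Filled points passed an adjusted p of 0.05. The filled points are Syn3, Slc17a7 and Syt4 in Ocn+/- and Syt4, Unc13a and Unc13b in Ocn-/-, and all values lie between -0.45 and 0.58.

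The calls depended on single libraries. Without WT 3 no member was called by edgeR in Ocn+/- or in Ocn-/- against WT, with 1.11% and 1.15% of all genes called, and 2 members were called with both mutants together, Syt4 at -0.27 (adjusted p 0.0383) and Unc13a at -0.29 (0.0494), with 1.95% of all genes called. Without WT 3 the log2 fold changes with both mutants together were 0.40 for Slc17a7, 0.18 for Syt1, 0.23 for Cplx2, -0.28 for Syn3 and -0.30 for Unc13b, all in the direction found with WT 3. For Ocn+/- against WT, 1 member was called without WT 1, with 3.09% of all genes, and none without Ocn+/- 2 or Ocn+/- 3, with 1.9% and 1.66%. Whichever library was left out, the log2 fold changes in Ocn+/- were -0.33 to -0.28 for Syt4, 0.47 to 0.71 for Slc17a7 and -0.47 to -0.36 for Syn3. For Ocn-/- against WT, none was called without WT 1, Ocn-/- 2 or Ocn+/- 2, with 4.23%, 1.69% and 4.05% of all genes, and 1 without WT 2, Ocn-/- 3 or Ocn+/- 3, with 2.22%, 5.41% and 4.2%. With both mutants together, 3 were called without WT 1, 3 without WT 2 and 4 without Ocn+/- 2, with 6.23%, 4.75% and 7.57% of all genes. Scaling by library size alone, in place of TMM, left only higher calls: Slc17a7 in each genotype, and Slc17a7, Syt1, Cplx2 and Bsn with both together, in place of 3 higher and 4 lower. That scaling moved the median of all genes to 0.11 in Ocn-/- against WT, and on it Syt4 had -0.19, Unc13a -0.17, Unc13b -0.22 and Syn3 -0.24 with both mutants together.

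Ocn-/- 1 was often the lowest mutant among the members. It had the lowest level of the 6 mutant forebrains for 21 of the 37 members, and the lowest of all 9 forebrains for 10. WT 3 had the lowest of all 9 for 13 members and the highest for 6. The share of all genes with their lowest or highest level in these libraries was not counted. These counts therefore do not set the members apart from other genes. Without Ocn-/- 1 the calls in Ocn-/- against WT were 2 members, Slc17a7 higher and Syt4 lower, with 2.91% of all genes called. The summed level of the 37 members was 7210 CPM to 7386 CPM in WT, 7657 CPM to 7895 CPM in Ocn+/- and 7013 CPM to 7838 CPM in Ocn-/-, the lowest being Ocn-/- 1. Over the same libraries the summed endothelial markers were 94.8 CPM to 127 CPM in WT and 71.6 CPM to 92.2 CPM in the mutants, although the 3 markers ranged from -1.31 to 0.27 in log2 fold change with both mutants together and 2 were called, both lower. The striatal markers were at 141 CPM to 169 CPM in WT, 155 CPM to 204 CPM in Ocn+/- and 217 CPM to 226 CPM in Ocn-/-. In Ocn-/- 5 of the 6 had a log2 fold change above 0, with a range of -0.11 to 0.95, and 2 were called, both higher. The markers of radial glia and astrocytes were at 718 CPM to 821 CPM in WT and 918 CPM to 952 CPM in Ocn+/-, those of erythroid cells at 386 CPM to 519.7 CPM and 270.3 CPM to 316 CPM, and those of hippocampus and pallium at 1050 CPM to 1254 CPM and 924 CPM to 1033 CPM, while all 3 sums overlapped between WT and Ocn-/-. In Ocn+/- the glial markers ranged from -0.06 to 0.75 in log2 fold change, with 1 of 5 called, higher. The erythroid markers ranged from -0.84 to -0.32, with 2 of 3 called, both lower. Those of hippocampus and pallium ranged from -0.39 to 0.22, with none of 6 called. The choroid plexus markers were at 545 CPM to 716 CPM in WT and 311 CPM to 515 CPM in Ocn-/-. Nearly all of that sum was Ttr, since Kl and Folr1 did not exceed 3.14 CPM and 6.62 CPM in forebrain. In Ocn-/- the 3 markers ranged from -0.52 to 0.23 in log2 fold change, and none was called. The part of these markers in the members' levels was not tested.

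Between Ocn-/- and Ocn+/- forebrains, whose mothers were both Ocn-/-, no member was called by edgeR's quasi-likelihood test or by DESeq2, where 0.00622% of all genes were called by edgeR. At an unadjusted p under 0.05 there were 2 members, beside 3.2% of all genes, Vamp2 with a log2 fold change of -0.23 and Slc17a6 with -0.34. The median over the members was -0.04. The 95% intervals of the difference lay within 0.5 on either side of 0 for 33 members and within 1 for all 37. The widest bounds were -0.62 for Slc17a6 and 0.79 for Syt2. These intervals use a normal approximation and a standard error derived from the test statistic, so with few libraries they can be too narrow. Snap25, the SNARE of the plasma membrane, was the only member without overlap, at 269 CPM to 296 CPM in Ocn-/- against 306 CPM to 317 CPM in Ocn+/-, where 7.76% of all genes did not overlap.

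The same machinery has further genes, of which 66 were listed by role. Of the 64 that could be tested in forebrain, 1 was called in Ocn+/- against WT, 3 in Ocn-/- and 3 with both mutants together, beside 3.89%, 4.85% and 8.68% of all genes. Picalm, a clathrin adaptor related to Snap91, was at 307 CPM to 356 CPM in WT, 249 CPM to 282 CPM in Ocn+/- and 265 CPM to 269.9 CPM in Ocn-/-, and fell by 0.28 in Ocn+/- (edgeR adjusted p 0.044) and by 0.29 in Ocn-/- (0.0361) on the log2 scale. Slc32a1, the transporter that loads GABA and glycine, was at 48.7 CPM to 52.1 CPM in WT and at 61.9, 62.1 and 84.1 CPM in Ocn-/-, and rose by 0.46 ± 0.11 (edgeR adjusted p 0.0251). Without Ocn-/- 2, its highest library, the log2 fold change of Slc32a1 was 0.30 and was not called. Rph3a (rabphilin), a partner of Rab3a, was at 112 CPM to 134 CPM in WT and 147 CPM to 155 CPM in Ocn-/-, and rose by 0.30 ± 0.08 (0.0373). Over the 64 genes the log2 fold changes had a median of 0.09 for Ocn+/- against WT and of 0.08 for Ocn-/-. Without WT 3 none of Picalm, Slc32a1 and Rph3a was called in either genotype. Whichever library was left out, their log2 fold changes in Ocn-/- were -0.33 to -0.22, 0.30 to 0.54 and 0.24 to 0.36, in that order.

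The testes served as contrast. In a fit of all 17 libraries over 17800 genes, all 37 members were called between the tissues, where 84.4% of all genes were. Of these 6 had too few counts to be tested in testes alone and entered the fit through forebrain, where they were high. With at least 10 counts required in every library, 26 members were left, of which 23 were called higher in forebrain and 3 lower, with a median log2 fold change of 3.82, where 85% of all genes were called. Without that requirement 34 members were higher in forebrain and 3 lower, where 39.9% of all genes were higher and 44.5% lower, with a median log2 fold change of 5.19 over the 37 beside -0.09 over all genes. The members made up 0.624% to 0.811% of all counts in forebrain and 0.0849% to 0.0958% in testes. The 3 members higher in testes were Unc13b, with a log2 fold change of -2.48, Syt2 with -1.19 and Vamp1 with -0.59. Unc13b alone held 31.9% to 47.6% of the members' counts in each testis and 0.614% to 0.902% in each forebrain. On the scale of the joint fit it was at 14.8 RPKM ± 2.42 (SD, n = 8) in testes and 2.69 RPKM ± 0.324 (n = 9) in forebrain, the reverse of Unc13a, at 0.308 RPKM ± 0.1 and 13.9 RPKM ± 1.41.

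Other members were also present in testes. Vamp2 was at 20.9 RPKM ± 3.72. Cplx2, at 14.4 RPKM ± 1.34, cannot be ordered against Unc13b within their spread. Stx1a at 7.59 RPKM ± 1.25 and Syt7 at 6.61 RPKM ± 0.781 followed. Slc17a6, Slc17a7, Rab3c, Cplx1, Snap25 and Syt5 had a mean under 1 CPM in testes and were not tested there, Slc17a6 with 0 to 2 counts per library. The other 31 were tested. Markers of germ cells such as Ddx4, at 64.8 CPM or more, and of Sertoli cells such as Amh, at 331 CPM or more, were present in every testis and Ddx4 did not exceed 3.28 CPM in forebrain. Dppa3, also a germ cell marker, was at 0 to 0.905 CPM in testes.

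**Figure D3:**
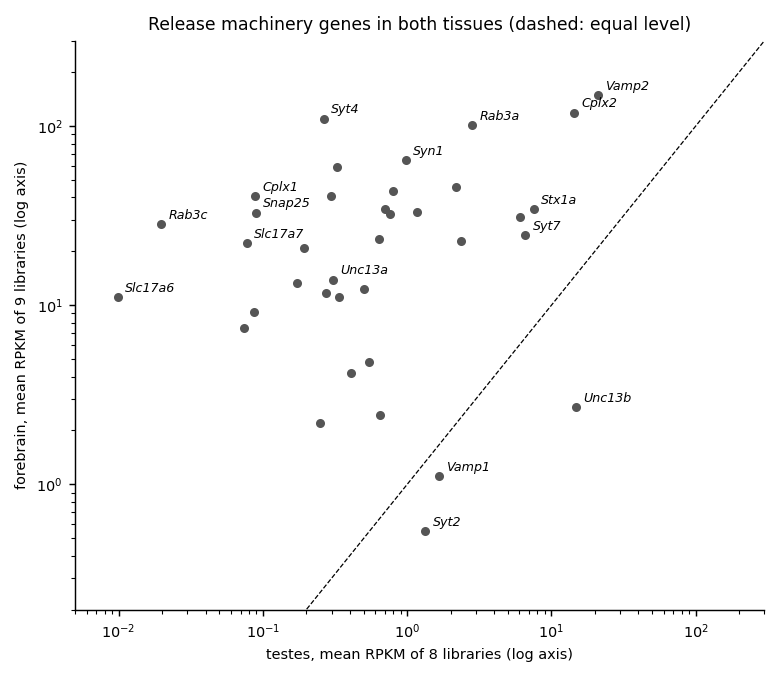
Mean RPKM of each of the 37 members in 8 testis libraries (horizontal, log axis) and 9 forebrain libraries (vertical, log axis), on the scale of the fit of both tissues; the dashed line marks equal levels. All points lie above the line apart from Unc13b, Vamp1 and Syt2.

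Within testes, Syt1 and Slc18a2 fell in Ocn+/- and Syt2 rose in Ocn-/-. By edgeR's quasi-likelihood test over 16361 genes, 2 of the 31 members tested were called in Ocn+/- against WT, where 8.25% of all genes were called, and 1 in Ocn-/- against WT, where 5.64% were. With both mutants together 4 were called, where 9.94% were, with Rims2 falling besides. Between Ocn-/- and Ocn+/- none was called by edgeR, where 0% of all genes were called, with 1 member at an unadjusted p under 0.05 beside 11.5% of all genes, while DESeq2 called that member, Dnm1, lower in Ocn-/-. The median over the 31 members was -0.16 in Ocn+/- and -0.26 in Ocn-/-.

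Between the 6 mutant and the 2 WT testes 8 of the 31 members did not overlap, beside 26% of all genes. Syt1 was at 16.6 and 18.4 CPM in WT testes, at 8.61, 12.7 and 7.41 CPM in Ocn+/- and at 10.8, 10.1 and 8.95 CPM in Ocn-/-. Every mutant lay below both WT, and the log2 fold change was -0.86 ± 0.24 in Ocn+/- (edgeR adjusted p 0.0406) and -0.81 in Ocn-/- (0.0595). Syt2 was at 8.79 and 8.94 CPM in WT, at 16.96, 13.7 and 12.1 CPM in Ocn+/- and at 16.9, 19.1 and 16.9 CPM in Ocn-/-, above both WT in every mutant. It rose by 0.99 ± 0.22 on the log2 scale in Ocn-/- (edgeR adjusted p 0.0167), and had 0.68 in Ocn+/- (0.0645). Slc18a2 was at 6.85 and 5.79 CPM in WT, at 3.31, 2.39 and 1.92 CPM in Ocn+/- and at 4.61, 3.69 and 3.78 CPM in Ocn-/-, that is 14 to 53 counts per library. The log2 fold change of Slc18a2 was -1.31 ± 0.35 in Ocn+/- (edgeR adjusted p 0.0341) and -0.65 in Ocn-/- (0.273). Rims2 was at 8.92 and 10.2 CPM in WT and 4.14 CPM to 7.55 CPM in the mutants, with -0.88 ± 0.26 for both mutants together (0.045). Without either WT testis no member was called against WT in any testis comparison. The log2 fold changes without WT 1 or WT 2 were -0.93 and -0.77 for Syt1 and -1.18 and -1.41 for Slc18a2 in Ocn+/-, and for Syt2 in Ocn-/- they stayed between 0.93 and 1.04 whichever library was left out. The summed endothelial markers were 163 CPM and 184 CPM in the WT testes and 75.2 CPM to 106.5 CPM in the mutants, and the 3 markers ranged from -1.48 to 0.40 in log2 fold change with both mutants together, with 2 called, both lower. The Leydig cell markers were at 778 CPM to 893 CPM in WT and 479 CPM to 700.2 CPM in the mutants, with log2 fold changes from -1.57 to 0.18 with both mutants together and none of the 3 called. The erythroid markers were at 1913 CPM and 5010 CPM in WT, 632 CPM to 2787 CPM in Ocn+/- and 968 CPM to 1844 CPM in Ocn-/-, with a median log2 fold change of -1.30 over the 3 with both mutants together and none called. The list headed by Pdgfra, an oligodendrocyte precursor marker in brain, was at 1063 CPM to 1091 CPM in WT and 715 CPM to 899 CPM in the mutants. Most of that sum was Pdgfra itself, and Olig1 and Olig2 of the same list did not exceed 0.378 CPM and 0.355 CPM in testes. The sums for germ cells and Sertoli cells overlapped between WT and mutants. Of the 3 Sertoli markers 1 was nevertheless called higher with both mutants together, and the 3 ranged from 0.01 to 1.01 in log2 fold change. The part of these markers in the results was not tested.

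The change with both mutant genotypes together against WT was then compared between forebrain and testes as an interaction in the fit of all 17 libraries. Of the 37 members 4 differed between tissues, all among the 31 tested in testes alone, where 2.96% of all genes did. Syt1 moved in opposite directions, by 0.21 in forebrain and -0.84 in testes, a difference of 1.06 ± 0.17 (edgeR adjusted p 0.00111). Rims2, a scaffold of the active zone, had 0.15 in forebrain and -0.88 in testes, a difference of 1.04 ± 0.22 (0.0121). Syt4 had -0.28 in forebrain and -1.69 in testes, where it was not called (0.0522), and differed by 1.42 ± 0.33 (0.0199), on 3 to 28 counts per testis, with 12 and 28 in WT. Syt11 had 0.14 and -0.43 and differed by 0.58 ± 0.16 (0.0432). Without the testis WT 2 only Syt1 remained called among the members, with 0.501% of all genes called, and the differences were 0.71 for Syt4, 0.33 for Syt11 and 0.94 for Rims2.

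**Figure D4:**
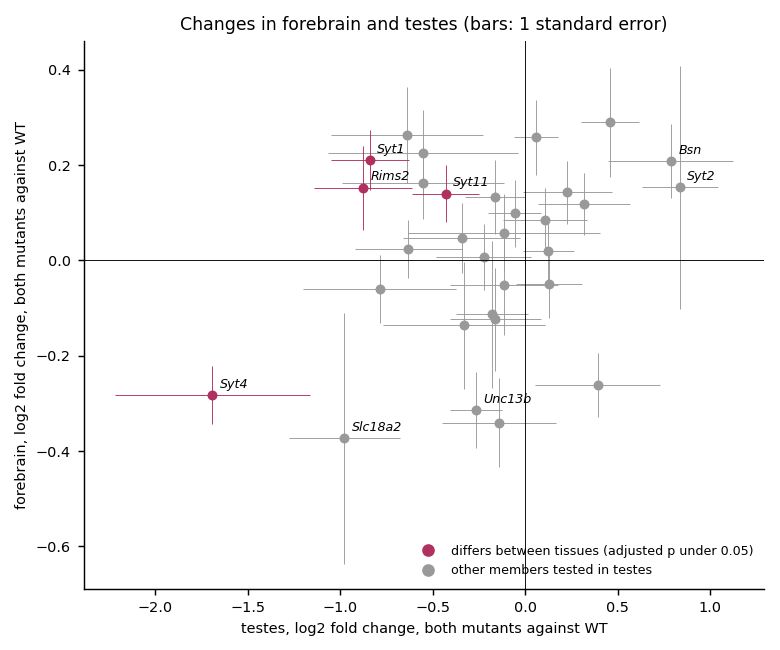
Log2 fold change of both mutant genotypes together against WT in testes (horizontal) and forebrain (vertical) for the 31 members tested in testes, with bars of 1 standard error; coloured points differ between the tissues at an adjusted p under 0.05. Syt1, Rims2 and Syt11 lie to the left of 0 in testes and above 0 in forebrain, and Syt4 has negative values in both tissues, of which the one in testes was not called.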

How the data were processed

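RNA of 17 libraries was assigned to tissue, genotype and replicate by the sample labels. According to the study's methods, poly-A RNA was sequenced on an Illumina HiSeq. Per the labels and methods, reads were trimmed with Trim Galore 0.6.6, aligned to GRCm39 with STAR 2.7.8a and counted with RSEM 1.3.3. Strandedness and the GENCODE release are not given in the sources used here. The authors deposited expected counts per gene without normalization, and these were rounded. Names, positions and exon lengths came from GENCODE vM39 (54749 of 55359 identifiers matched, 31367 in the same version). Genes with too few counts were removed with edgeR's filterByExpr.

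R 4.3.3 with edgeR 4.0.16 was used, each tissue fitted alone (TMM, robust quasi-likelihood tests, two-sided, no covariate) and both together for contrasts between tissues. The threshold was an adjusted p of 0.05 (Benjamini-Hochberg, over all genes tested). Standard errors were derived from each fold change and its test statistic. The fits were also run on simulated counts. These held no outlying library, and their folds were mostly larger than those called here, so they do not test these calls. Alternatives were upper quartile scaling, library size alone, DESeq2 1.42.0, no filter, at least 10 counts in every library, the replicate number as a block and each library left out. The members, the other lists and the markers were chosen with earlier results of these data known. All members may be named; values per library are given for members called in a forebrain comparison and for the 3 highest by RPKM, and of the other release genes those called in forebrain are named. Of the other release genes 1 is not reported here. Values per library of testis and of genes outside this rule were added after the values were seen.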

Additional observations from a re-analysis of the deposited data

Results flagged for a closer look

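The change with both mutant genotypes together against WT differed between forebrain and testes, by the interaction term of edgeR's quasi-likelihood fit, for 4 of the 31 members and 1 of the 55 other release genes that could also be tested in testes alone, where 2.96% of all genes differed. The differences of the log2 fold changes, forebrain minus testes, were 1.06 for Syt1, 1.42 for Syt4, 0.58 for Syt11 and 1.04 for Rims2. Over the alternatives the adjusted p of Syt1 ran from 1.6e-08 to 0.0281, that of Rims2 from 0.000435 to 0.126, that of Syt4 from 0.00202 to 0.559 and that of Syt11 from 0.00695 to 0.452. Rph3a differed by 2.67 (adjusted p 0.000154). It was at 18 and 17 counts in the WT testes and at 1 to 6 counts in the mutant testes, and rose in forebrain.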

How the results depend on the processing

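Of the counts of members called, 120 of the 160 values under alternatives stayed within 1.5 times the main count. Among single genes 487 values kept their direction and their side of the threshold, 151 no longer passed, 18 newly passed and none changed direction. These genes were taken because a main comparison called them, and the alternatives refit the same counts. A kept direction is therefore no independent support. The 487 also hold results called in neither fit, such as Unc13a in Ocn+/- against WT under all 15 alternatives. In what follows the share of all genes called in the same fit stands in parentheses. In forebrain, Ocn+/- against WT gave 3 members (3.89%), 1 with library size alone (2.3%), 5 with DESeq2 (5.82%) and 7 without a filter (4.37%), and 0 to 4 with 1 library left out (1.11% to 5.06%). Ocn-/- against WT gave 3 (4.85%), 1 with library size alone (4%) and 0 to 3 with 1 library left out (1.15% to 5.6%). Both mutants together gave 7 (8.68%), 4 with library size alone (7.1%) and 2 to 7 with 1 library left out (1.95% to 9.3%). In testes, Ocn+/- against WT gave 2 (8.25%), 0 with the replicate block (5.9%) and 0 to 3 with 1 library left out (0.691% to 12.5%). Ocn-/- against WT gave 1 (5.64%), 2 without a filter (6.04%), 2 with at least 10 counts in every library (7.46%) and 0 to 2 with 1 library left out (0.498% to 9.57%). Both mutants together gave 4 (9.94%), 2 with DESeq2 (13.6%), 1 with the replicate block (7.15%) and 0 to 4 with 1 library left out (0.732% to 15.3%). Ocn-/- against Ocn+/- gave 0 (0%), and 1 with DESeq2 (1.33%) or without a filter (0.863%). The interaction gave 4 (2.96%), and 1 to 5 with 1 library left out (0.501% to 6.03%). The cause was not tested. The replicate numbers were not taken to pair the libraries, since same-numbered libraries correlated between -0.0937 and 0.146 in their deviations from the genotype means, and the replicate block gave 3, 4 and 7 members in the forebrain comparisons with WT (4.78%, 7.09% and 10.1%). Where 1 WT testis was left out, the other was taken to vary like the other groups. Members with few counts in testes limit what can be called there.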
